A study of Mus musculus with 12 samples.

Results

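The 10 genes described here make and receive the insulin-like growth factor (IGF) signal: the ligand gene Igf2, the receptor gene Igf1r, the binding-protein genes Igfbp2, Igfbp3, Igfbp4, Igfbp5, Igfbp6 and Igfbp7, and the insulin receptor substrate genes Irs1 and Irs2. They were taken by symbol from the platform annotation, using only probe sets that carry exactly 1 gene symbol. That gave 10 of the 22180 genes measured, on 11 of 41345 probe sets, since Irs1 has a pair of them. RNA was measured on 12 Affymetrix arrays of MLE12 cells, an epithelial line from mouse lung immortalised by SV40 large T antigen, in 4 groups of 3. Cells carried a lentiviral pLKO.1 shRNA (a short hairpin RNA) against the long noncoding RNA NANCI, a scrambled shRNA run beside it, an shRNA against the long noncoding RNA LL34, or a scrambled shRNA run beside that one. All groups were infected at 60% confluency for 12 h and subcultured for 65 h. All were grown with 0.005 mg/ml insulin, 10 nM hydrocortisone, 10 nM beta-estradiol and 2% serum. The replicates are described as biological, but whether they came from separate infections is not said, so the p-values speak only of spread among arrays, which may be technical.

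IGF1 and IGF2 act through the IGF1 receptor, a tyrosine kinase of the cell surface that is closely related to the insulin receptor. Outside the cell they are held by binding proteins, which can keep a ligand from the receptor or carry it there, and which are in turn cut by proteases. Inside the cell the active receptor phosphorylates the substrates IRS1 and IRS2, docking proteins that recruit PI3-kinase and so activate AKT, which holds FOXO transcription factors out of the nucleus. In the lung this pathway is known for its part in growth before birth and in repair of the epithelium.

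The arrays gave 1 log2 signal per probe set. Array medians lay between 6.84 and 6.88 for the 6 NANCI arrays and between 6.54 and 6.61 for the 6 LL34 arrays, and the lowest correlation between replicates of any group was 0.986. The targeted RNA could be checked for NANCI only: Sfta3-ps, for which the gene table has the synonym Nanci, fell to 13.3% of its scrambled level with the NANCI shRNA (log2 change −2.91, SE 0.121, adjusted p = 1.72e-07). It was also lower with the LL34 shRNA, at 62.6% of its scrambled level there (−0.67, SE 0.121, adjusted p = 0.00284), without overlap. The RNA targeted by the LL34 shRNA was not analysed here. Of 14 lung epithelium markers, 8 lay above the array median on all 12 arrays, among them Nkx2-1, Sftpb, Sftpc and Cdh1, while 4 lay below it on all 12. Of 9 mesenchymal markers, 5 also lay above it throughout (Col1a1, Col3a1, Dcn, Acta2 and Des), against 0 of 7 endothelial markers and, of 7 leukocyte markers, Cd68 alone.

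Changes below are log2 differences, shRNA minus the scrambled group of the same set, with the standard error (SE) of a limma fit over all 12 arrays. A gene is called higher or lower where its p-value, adjusted over all 41345 probe sets, is under 0.05, and groups do not overlap where all 3 arrays of one lie above all 3 of the other.

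With the NANCI shRNA, RNA of the binding proteins Igfbp4 and Igfbp6, of the receptor Igf1r and of the substrate Irs2 fell, and RNA of the binding protein Igfbp3 rose. Of the 10 genes, 5 were called, 1 higher and 4 lower, where 19.9% of all probe sets were called, 10.3% higher and 9.6% lower. Brighter probe sets were called more often: 8 of the 10 genes were among the 20673 probe sets whose mean was at or above the median, and in a test of those alone 5 of the 8 were called, against 40.7% of all of them. In 6 of the 10 the groups did not overlap, against 33% of all probe sets. The median change of the 10 was 0.05, against 0.01 over all probe sets, and the median size of change was 0.24, against 0.11. As these are bulk samples, fewer cells with a given RNA and less of it per cell cannot be told apart.

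Igfbp6 encodes a binding protein that prefers IGF2 over IGF1. It measured 9.73, 9.56 and 9.50 on the NANCI shRNA arrays, against 10.59, 10.76 and 10.81 on the NANCI scrambled arrays. All 3 shRNA arrays were lower, and the change was the most negative of the 10 in this comparison, at −1.12 (SE 0.0998, adjusted p = 1.52e-05), which left 46.0% of the scrambled level.

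Igfbp4 encodes a binding protein known mainly as an inhibitor of IGF action, whose ligand is freed when the protease PAPP-A cuts the protein. It measured 8.37, 8.50 and 8.25 on the NANCI shRNA arrays, against 9.12, 9.14 and 9.08 on the scrambled arrays. All 3 shRNA arrays were lower, with a change of −0.74 (SE 0.0649, adjusted p = 1.41e-05) that left 60.0% of the scrambled level. With the 6 scrambled arrays of both sets pooled into 1 control the change was −0.22 and was not called (adjusted p = 0.572). Over all probe sets the median change with that control was 0.13.

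Igfbp3 encodes the main IGF carrier of blood plasma. It measured 8.41, 8.21 and 8.46 with the NANCI shRNA and 7.87, 7.95 and 7.97 with the scrambled shRNA. It was the 1 member called higher here, by 0.43 (SE 0.0700, adjusted p = 0.00101), with no overlap. Against that pooled control Igfbp3 was higher by 0.76, where the median of all probe sets was higher by 0.13. In that pool the LL34 scrambled arrays differed from the NANCI scrambled arrays by −0.67 in Igfbp3. Igfbp1, a liver-type binding-protein gene that lies next to Igfbp3 on chromosome 11 with 0 genes between them in the gene table, was not called (0.07, adjusted p = 0.75). Igfbp1 lay below the array median on all 12 arrays.

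Igfbp2 and Igfbp5 were not called with the NANCI shRNA. Igfbp2, whose protein also binds integrins, measured 9.38, 9.14 and 8.93 with the shRNA, against 8.96, 8.97 and 8.89 with the scrambled shRNA, and the groups overlapped (0.21, SE 0.138, adjusted p = 0.382). Igfbp5, whose protein also binds the extracellular matrix, had a change of 0.16 (SE 0.168, adjusted p = 0.637). In both genes the 3 shRNA arrays were spread more widely than the scrambled ones, with SDs of 0.224 and 0.0418 for Igfbp2 and of 0.174 and 0.0325 for Igfbp5 in shRNA and scrambled arrays. Igfbp7, which encodes a related secreted protein of low affinity for IGFs, had a change of 0.05 (adjusted p = 0.841).

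The receptor Igf1r measured 10.38, 10.46 and 10.52 on the NANCI shRNA arrays, against 10.75, 10.75 and 10.72 on the scrambled arrays. The groups did not overlap, and Igf1r fell by 0.29 (SE 0.0551, adjusted p = 0.00285), to 81.8% of the scrambled level. The ligand Igf2, an imprinted gene read from the paternal copy, lay below the array median on all 12 arrays and was not called (0.04, adjusted p = 0.888).

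Of the substrates, Irs2 was called and Irs1 was not. Irs2 measured 10.40, 10.17 and 10.34 with the NANCI shRNA and 10.60, 10.56 and 10.51 with the scrambled shRNA, a change of −0.25 (SE 0.0688, adjusted p = 0.0244) without overlap. That call was lost without NANCI_shRNA replicate 2, NANCI_control replicate 1 or NANCI_control replicate 2 (adjusted p from 0.0606 to 0.0921), and in a fit of the 6 NANCI arrays alone (0.073). With the pooled control the change was 0.06 (adjusted p = 0.83). Irs1 measured 8.58, 8.50 and 8.48 with the shRNA and 8.47, 8.29 and 8.10 with the scrambled shRNA. Its groups did not overlap either, but the change of 0.24 was not called (SE 0.0918, adjusted p = 0.106). It was called without NANCI_control replicate 1, the scrambled array nearest to the shRNA arrays (0.33, adjusted p = 0.0261). The dimmer probe set of Irs1 had a like change of 0.24 (adjusted p = 0.149).

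**Figure D1:**
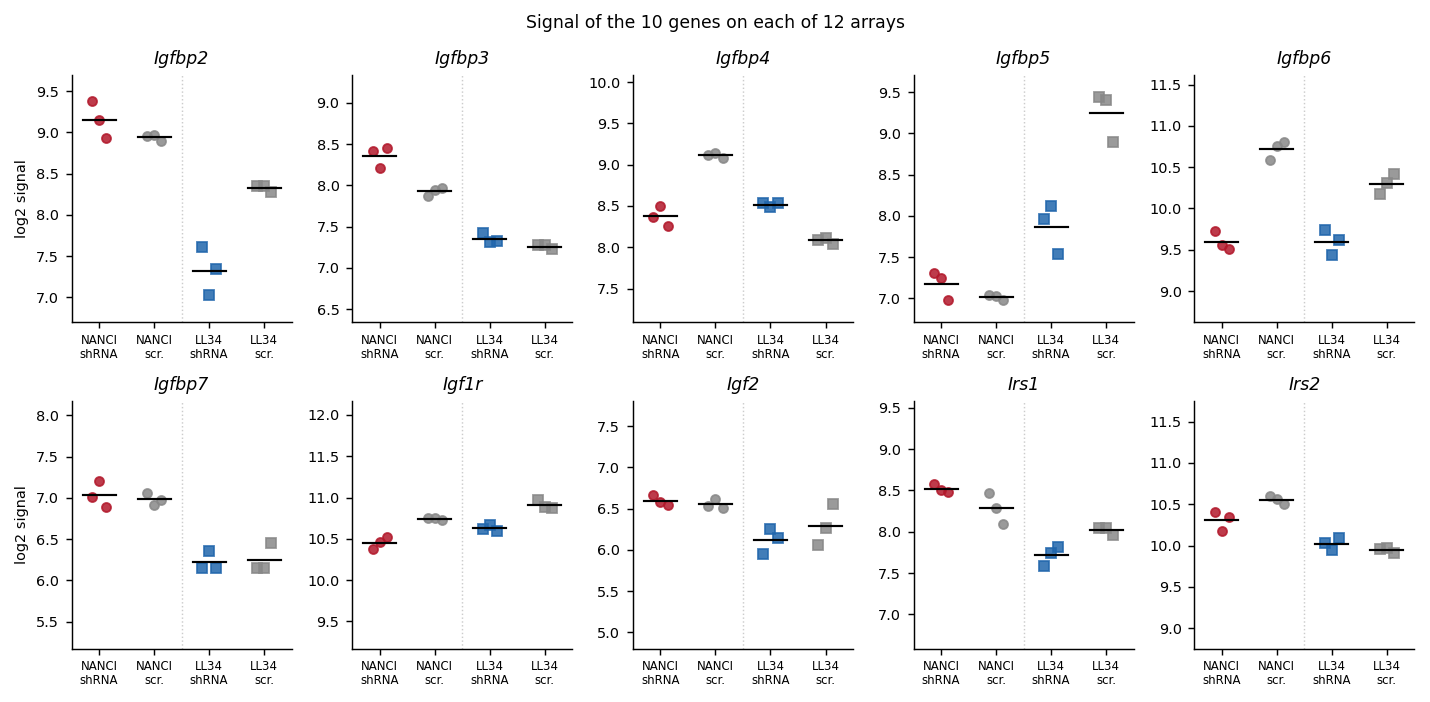
Log2 signal of each of the 10 genes on every array, 1 panel per gene and 1 point per array, with a bar at each group mean, for the NANCI shRNA, NANCI scrambled, LL34 shRNA and LL34 scrambled groups (3 arrays each). Igfbp6 and Igf1r lie lower in the shRNA group of each set, whereas Igfbp4 lies lower in the NANCI shRNA group and higher in the LL34 shRNA group than in the scrambled group beside it.

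With the LL34 shRNA, RNA of the binding proteins Igfbp5, Igfbp2 and Igfbp6, of the receptor Igf1r and of the substrate Irs1 fell, and RNA of Igfbp4 rose. Of the 10 genes, 6 were called, 1 higher and 5 lower, where 16.4% of all probe sets were called, 9.7% higher and 6.66% lower. Among the brighter probe sets tested alone 6 of the 8 were called, against 34.9% of all of them. Over all probe sets, 4011 of the 6766 calls were higher. Quantile normalization over all arrays gave 3307 of 6770, and median centring of the arrays 3062 of 6097. In 7 of the 10 genes the groups did not overlap, against 31% of all probe sets. The median change of the 10 was −0.23, against 0.00 over all probe sets, and the median size of change was 0.29, against 0.11.

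Igfbp5 had the most negative change of the 10 with the LL34 shRNA. It measured 7.96, 8.11 and 7.53 on the LL34 shRNA arrays, against 9.44, 9.40 and 8.90 on the LL34 scrambled arrays, a change of −1.38 (SE 0.168, adjusted p = 0.000256) that left 38.4% of the scrambled level. Replicate 3 was the lowest array in each of these groups, and the groups still did not overlap. With the pooled control the change was −0.26 (adjusted p = 0.755). Over all probe sets the median change with the LL34 shRNA was then −0.11. The NANCI scrambled arrays in that pool had a mean Igfbp5 level of 7.02.

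Igfbp2 measured 7.61, 7.02 and 7.34 with the LL34 shRNA and 8.35, 8.35 and 8.28 with the scrambled shRNA. All 3 shRNA arrays were lower, with a change of −1.0 (SE 0.138, adjusted p = 0.000549) that left 49.96% of the scrambled level. Igfbp2 and Igfbp5 are neighbours on chromosome 1, on opposite strands, with 0 genes between them in the gene table of assembly GRCm38.p6. Neither was called with the NANCI shRNA.

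The 250 bases before their starts are shown because this pair fell together. They come from RefSeq (GRCm38.p6), run 5′ to 3′ on the strand of the gene, and capitals mark the E-box letters CACGTG, which read the same on both strands. Igfbp2 has a second annotated start, whose window is not shown, and the window here is that of the first, chr1:72824230-72824479 on the + strand. The Igfbp5 window is chr1:72874866-72875115 on the − strand.
Igfbp2: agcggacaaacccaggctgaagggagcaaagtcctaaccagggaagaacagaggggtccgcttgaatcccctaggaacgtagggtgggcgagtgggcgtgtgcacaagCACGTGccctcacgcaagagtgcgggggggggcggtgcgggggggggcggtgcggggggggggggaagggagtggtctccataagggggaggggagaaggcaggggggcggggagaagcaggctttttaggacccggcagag
Igfbp5: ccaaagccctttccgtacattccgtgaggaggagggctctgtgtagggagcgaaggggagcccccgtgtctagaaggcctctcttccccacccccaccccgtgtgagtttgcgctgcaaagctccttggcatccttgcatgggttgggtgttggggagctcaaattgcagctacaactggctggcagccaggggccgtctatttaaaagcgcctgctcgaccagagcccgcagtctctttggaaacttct
The Igfbp2 window holds 1 E-box match, 142 to 137 bases before the start, and long runs of G. The Igfbp5 window holds no match to the letters searched. Letters of the E-box occur in 6.02% of the 32851 mouse windows of this length.

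Igfbp6 measured 9.74, 9.44 and 9.62 with the LL34 shRNA, against 10.17, 10.30 and 10.42 with the scrambled shRNA. It fell by 0.70 (SE 0.0998, adjusted p = 0.000676), to 61.5% of the scrambled level, without overlap. Igfbp4 moved the other way, with 8.53, 8.49 and 8.53 on the LL34 shRNA arrays and 8.09, 8.12 and 8.04 on the scrambled arrays. It was the 1 member called higher here, by 0.43 (SE 0.0649, adjusted p = 0.00095), to 135% of the scrambled level. With that pooled control the Igfbp4 change was −0.08 (adjusted p = 0.838). The shRNA arrays 1 and 3 carried exactly equal Igfbp4 values, and 464 probe sets had 1 value on all 3 LL34 shRNA arrays, so a small SD in that group may not measure the spread between cultures.

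Igfbp3 and Igfbp7 were not called with the LL34 shRNA. Igfbp3 measured 7.42, 7.32 and 7.33 with the shRNA and 7.27, 7.28 and 7.23 with the scrambled shRNA, which do not overlap but differ by only 0.10 (SE 0.0700, adjusted p = 0.446). Igfbp7 had a change of −0.03 (adjusted p = 0.897), and its value of 6.15 on shRNA arrays 1 and 3 and scrambled array 1 was exactly the same.

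Igf1r measured 10.62, 10.66 and 10.60 on the LL34 shRNA arrays, against 10.97, 10.88 and 10.87 on the scrambled arrays. It fell by 0.28 (SE 0.0551, adjusted p = 0.0049), to 82.3% of the scrambled level, without overlap. With the pooled control the change was −0.20 (adjusted p = 0.113). Igf2 was not called (−0.17, SE 0.116, adjusted p = 0.407), and its groups overlapped.

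Irs1 measured 7.59, 7.75 and 7.82 with the LL34 shRNA and 8.05, 8.05 and 7.96 with the scrambled shRNA. The groups did not overlap and Irs1 fell by 0.30 (SE 0.0918, adjusted p = 0.0484), close to the threshold. The call was lost under 14 of 22 alternatives. Leaving out any 1 of 10 of the 12 arrays lost the call (adjusted p from 0.0563 to 0.183), the exceptions being NANCI_control replicates 1 and 3. The dimmer Irs1 probe set was not called (−0.08, adjusted p = 0.709), with overlapping groups at 5.46, 5.47 and 5.4 on the shRNA arrays and 5.35, 5.46 and 5.75 on the scrambled arrays. Irs2 measured 10.03, 9.94 and 10.10 with the shRNA and 9.95, 9.97 and 9.90 with the scrambled shRNA, which overlap (0.08, adjusted p = 0.542).

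The windows before the starts of Irs1 and Irs2 are shown because the changes of these paralogues differed between the shRNAs in opposite directions (0.54 and −0.33, NANCI change minus LL34 change) and the windows share letters. Capitals mark CACGTG and the insulin response sequence TGTTTTG (or CAAAACA on the other strand), an element known from promoters that insulin represses through FOXO factors. The Irs1 window is chr1:82291440-82291689 and the Irs2 window chr8:11008930-11009179, both on the − strand of GRCm38.p6, from RefSeq.
Irs1: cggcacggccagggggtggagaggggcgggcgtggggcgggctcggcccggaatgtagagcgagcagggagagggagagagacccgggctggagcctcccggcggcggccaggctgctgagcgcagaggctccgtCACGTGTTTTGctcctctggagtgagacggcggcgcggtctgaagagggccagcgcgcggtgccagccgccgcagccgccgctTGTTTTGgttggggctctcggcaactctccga
Irs2: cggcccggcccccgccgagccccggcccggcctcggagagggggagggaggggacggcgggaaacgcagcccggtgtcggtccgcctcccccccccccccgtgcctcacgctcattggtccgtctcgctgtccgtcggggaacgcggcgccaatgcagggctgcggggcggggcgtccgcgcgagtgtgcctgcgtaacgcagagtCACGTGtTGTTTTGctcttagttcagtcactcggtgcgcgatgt
In Irs1 the E-box, 115 to 110 bases before the start, overlaps the first TGTTTTG, and another TGTTTTG lies 32 to 26 bases before it. In Irs2 the E-box lies 44 to 39 bases before the start, followed after a single base by TGTTTTG. Matches to both motifs are found in 97 of the 32851 mouse windows, or 0.295%. TGTTTTG or CAAAACA, with or without an E-box, occurs in 5.56% of them. Of the 14 windows of the 10 genes, 3 hold the E-box (Irs1, Irs2 and the first Igfbp2 start) and 2 the insulin response letters. The forkhead letters TGTTTAC (or GTAAACA) are in 0 of the 14 and in 3.17% of all windows, and CTCAAG (or CTTGAG), a core of sites bound by NKX2-1, is in 1 of the 14, the second Igfbp2 start, and in 13.3% of all windows. The letters were chosen after these windows had been read, and a match is a description of the sequence, not a bound site.

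**Figure D2:**
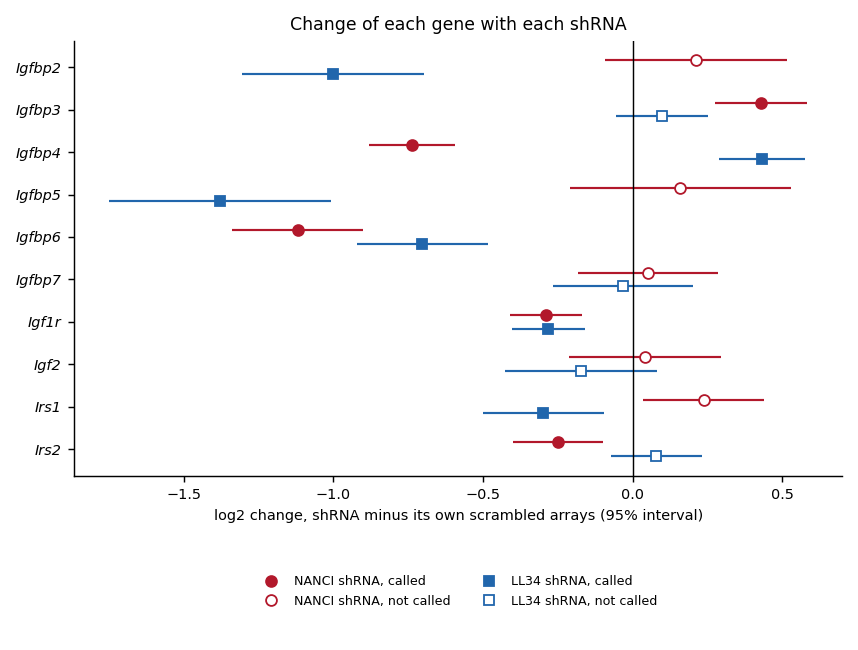
Log2 change of each of the 10 genes with its 95% interval from the limma fit, NANCI shRNA minus NANCI scrambled (circles) and LL34 shRNA minus LL34 scrambled (squares). Filled symbols are changes with an adjusted p under 0.05. Igf1r has nearly the same value in each comparison (−0.29 and −0.28), and Igfbp4 lies on opposite sides of 0 (−0.74 and 0.43).

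The changes with the 2 shRNAs were set against each other directly, as the NANCI change minus the LL34 change. The sets share no arrays. Of the 10 genes, 6 differed, 4 with the higher change in the NANCI set and 2 with the lower, where 18.8% of all probe sets differed. Among the brighter probe sets tested alone 7 of the 8 differed, against 39.4% of all of them. Igfbp5 differed by 1.54 (SE 0.237, adjusted p = 0.000829) and Igfbp2 by 1.21 (SE 0.195, adjusted p = 0.00108). Igfbp4 differed by −1.17 (SE 0.0918, adjusted p = 8.79e-06), and it was the 1 member called in both comparisons in opposite directions, as 3.83% of all probe sets were. Among the brighter probe sets tested alone 1 of the 8 was called so, against 9.2% of all of them. The substrates differed in opposite ways, with 0.54 for Irs1 (SE 0.13, adjusted p = 0.0134) and −0.33 for Irs2 (SE 0.0974, adjusted p = 0.0369). The dimmer probe set of Irs1 had a difference of 0.32 that was not called (adjusted p = 0.178). Igfbp3 differed by 0.33 (SE 0.0991, adjusted p = 0.0379). The Igfbp3 and Irs2 differences were lost on leaving out any 1 of 9 and of 10 arrays, and the Irs2 difference also with arrays centred on their medians (−0.30, adjusted p = 0.0848).

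Igf1r and Igfbp6 were lower with each shRNA, and 3.59% of all probe sets were called in both comparisons in 1 direction. Among the brighter probe sets tested alone 2 of the 8 were called so, against 9.19% of all of them. The Igf1r changes differed by −0.01, with a 95% interval from −0.18 to 0.16. The Igfbp6 changes differed by −0.42 (95% interval from −0.73 to −0.11, adjusted p = 0.065), which missed the threshold. It passed without 1 of 4 arrays, namely NANCI_shRNA replicate 1, NANCI_control replicate 1, LL34_shRNA replicate 2 or LL34_control replicate 3.

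Levels of the 4 groups were next set side by side. The sets differ in array medians, so set, culture and normalization cannot be told apart in what follows. The scrambled groups differed from each other in 9 of the 10 genes, 2 higher and 7 lower in the LL34 set, where 54.6% of all probe sets differed and the median probe set was lower by 0.22 in that set. With arrays centred on their medians the median probe set was 0.08 higher in it. After that centring 6 of the 10 genes differed, 2 higher and 4 lower, where 43.5% of all probe sets differed. The shRNA groups differed in 8 of the 10, 2 higher and 6 lower in the LL34 set, where 63.3% of all probe sets differed. With that centring they differed again in 8, but 4 were higher and 4 lower, where 52.9% of all probe sets differed. Over all probe sets, 3533 of 22561 calls between the scrambled groups were higher in the LL34 set, against 11653 of 17997 with arrays centred on their medians. Between the shRNA groups they were 5957 of 26158, against 12515 of 21888 with that centring.

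Igfbp5 had the widest range of group means, 2.23. It averaged 7.87 ± 0.3 in LL34 shRNA and 9.25 ± 0.303 in LL34 scrambled cells, and 7.18 ± 0.174 in NANCI shRNA and 7.02 ± 0.0325 in NANCI scrambled cells (SD, n = 3 for each group here and below). Its order from the top was LL34 scrambled, LL34 shRNA and then the NANCI groups, which overlapped. LL34 scrambled cells exceeded NANCI scrambled cells by 2.23 (SE 0.168, adjusted p = 4.62e-06), or by 2.53 after centring of each array on its median. Igfbp2 averaged 7.32 ± 0.292 in LL34 shRNA and 8.33 ± 0.0404 in LL34 scrambled cells, and 9.15 ± 0.224 in NANCI shRNA and 8.94 ± 0.0418 in NANCI scrambled cells. Here the NANCI groups, which overlapped, were on top and LL34 shRNA cells at the bottom. So this pair of neighbouring genes fell together with the LL34 shRNA, while their scrambled levels differed between the sets in opposite directions. The scrambled difference of Igfbp2 was −0.61 (adjusted p = 0.00328), which became −0.31 and was not called after the centring.

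Igfbp4 averaged 8.52 ± 0.0243 in LL34 shRNA and 8.08 ± 0.0381 in LL34 scrambled cells, and 8.38 ± 0.125 in NANCI shRNA and 9.11 ± 0.034 in NANCI scrambled cells. The scrambled groups were thus its highest and lowest, with the shRNA groups overlapping between them. LL34 shRNA cells differed from NANCI shRNA cells by 0.14 (adjusted p = 0.0795), or by 0.21 without NANCI_shRNA replicate 2 (adjusted p = 0.0154), whereas the scrambled groups differed by −1.03 (adjusted p = 1.96e-06). After centring of each array on its median these values were 0.41 and −0.73, and the 0.41 was called (adjusted p = 0.000456).

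Igfbp6 averaged 9.60 ± 0.151 in LL34 shRNA and 10.30 ± 0.126 in LL34 scrambled cells, and 9.60 ± 0.117 in NANCI shRNA and 10.72 ± 0.114 in NANCI scrambled cells. The shRNA groups overlapped below both scrambled groups and differed by 0.00 (adjusted p = 0.996), or by 0.27 after the centring (adjusted p = 0.0477). The scrambled groups differed by −0.42 (adjusted p = 0.00468), or by −0.12 after it (adjusted p = 0.385). Igf1r averaged 10.62 ± 0.0335 in LL34 shRNA and 10.91 ± 0.0508 in LL34 scrambled cells, and 10.45 ± 0.073 in NANCI shRNA and 10.74 ± 0.0175 in NANCI scrambled cells. Its order from the top was LL34 scrambled, NANCI scrambled, LL34 shRNA and NANCI shRNA, without overlap, and its range of group means, 0.45, was the narrowest of the 10. The scrambled difference of 0.16 (adjusted p = 0.0261) was lost without NANCI_control replicate 2 or 3 or LL34_control replicate 1 (adjusted p from 0.0517 to 0.0955). After the centring Igf1r differed by 0.46 between the scrambled groups (adjusted p = 9.67e-05) and by 0.44 between the shRNA groups (adjusted p = 6.84e-05). The LL34 shRNA arrays then lay above the NANCI scrambled arrays in Igf1r, so the order given above did not hold.

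Igfbp3 averaged 7.36 ± 0.0562 in LL34 shRNA and 7.26 ± 0.0267 in LL34 scrambled cells, and 8.36 ± 0.132 in NANCI shRNA and 7.93 ± 0.0564 in NANCI scrambled cells, with no overlap between neighbours in the order. Irs1 averaged 7.72 ± 0.117 in LL34 shRNA and 8.02 ± 0.0522 in LL34 scrambled cells, and 8.52 ± 0.0528 in NANCI shRNA and 8.28 ± 0.184 in NANCI scrambled cells, again without overlap. Its scrambled groups differed by −0.27 (adjusted p = 0.0299), or by 0.03 after the centring. That call was lost without NANCI_control replicate 1 or 2 or any 1 LL34_control array (adjusted p from 0.0525 to 0.117). Irs2 averaged 10.02 ± 0.0778 in LL34 shRNA and 9.94 ± 0.0344 in LL34 scrambled cells, which overlapped, below 10.31 ± 0.118 in NANCI shRNA and 10.56 ± 0.0459 in NANCI scrambled cells. The Irs2 difference of −0.28 between the shRNA groups was −0.01 after the centring and was no longer called (adjusted p = 0.898), and the scrambled difference of −0.61 was then −0.31 (adjusted p = 0.00704).

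Igfbp7 and Igf2 were called with neither shRNA. Igfbp7 had means of 6.22 in LL34 shRNA and 6.25 in LL34 scrambled cells, against 7.04 in NANCI shRNA and 6.99 in NANCI scrambled cells, and the scrambled groups differed by −0.73 (adjusted p = 0.000206). After the centring this difference was −0.43 (adjusted p = 0.00555). Igfbp7 lay below the array median on the 6 LL34 arrays. Igf2 had overlapping neighbours all along its order, with a difference of −0.48 between its shRNA groups (adjusted p = 0.00387) and of −0.27 between its scrambled groups (adjusted p = 0.0716), which was −0.40 without LL34_control replicate 3 (adjusted p = 0.00518). The Igf2 call between the shRNA groups was lost with arrays centred on their medians (−0.21, adjusted p = 0.13).

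**Figure D3:**
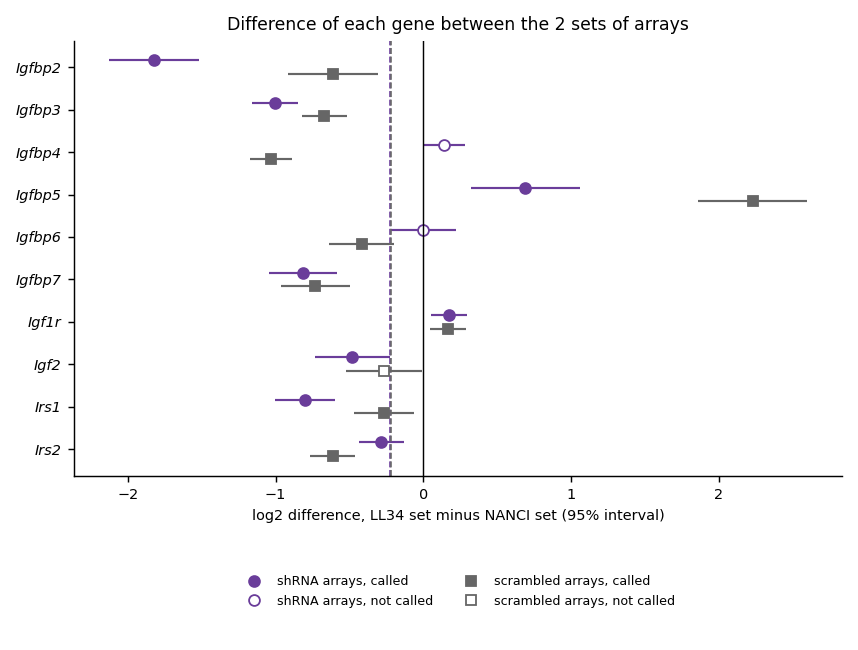
Difference in log2 level between the sets for each of the 10 genes with its 95% interval, LL34 shRNA minus NANCI shRNA and LL34 scrambled minus NANCI scrambled, from the limma fit. Dashed lines mark the medians of all 41345 probe sets, −0.23 and −0.22. Igfbp5 stands at 2.23 between the scrambled groups, and Igfbp4 and Igfbp6 differ between the scrambled groups while their shRNA groups lie close together. That pattern depends on the difference in level between the sets. With arrays centred on their medians, Igfbp6 differed by −0.12 between the scrambled and 0.27 between the shRNA groups, and Igfbp4 by −0.73 and 0.41.

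The rest of the pathway was described with lists of ligands, receptors, binding proteins with their proteases, adaptors, kinases and FOXO targets, 86 genes besides the 10, of which 75 were measured. With the NANCI shRNA 21 of the 75 were called higher and 19 lower, and with the LL34 shRNA 13 higher and 20 lower, where 19.9% and 16.4% of all probe sets were called. Most of the 75 were bright: 63 were among the brighter probe sets, and in the test of those alone 46 and 38 of the 63 were called, against 40.7% and 34.9% of all of them. The median change was 0.01 and −0.04 in these comparisons. Of the 75, 11 were called in both comparisons in opposite directions and 12 in the same direction, as were 3.83% and 3.59% of all probe sets. Among the brighter probe sets tested alone these counts were 12 and 15 of the 63, against 9.2% and 9.19% of all of them. Against the pooled control, calls named below were lost for Igf2bp3, Txnip, Pik3r3 and Rptor with each shRNA, for Stc2 with the NANCI shRNA, and for Ctsd, Trib3, Socs2 and Ccng2 with the LL34 shRNA.

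Among the other receptors, Insr fell with the NANCI shRNA and rose with the LL34 shRNA, as Igfbp4 did. It encodes the insulin receptor and measured 9.98, 9.99 and 9.85 with the NANCI shRNA, against 10.46, 10.47 and 10.54 with its scrambled shRNA (change −0.55, adjusted p = 5.73e-05). In the LL34 set it measured 10.72, 10.69 and 10.72 with the shRNA and 10.25, 10.24 and 10.13 with the scrambled shRNA (change 0.50, adjusted p = 0.000211). So Igf1r fell in both comparisons, while the related Insr fell in 1 and rose in the other. Igf2r, whose protein takes IGF2 to lysosomes for destruction, was not called with the NANCI shRNA (−0.02, adjusted p = 0.937) and rose with the LL34 shRNA (0.54, adjusted p = 0.000528). The ligands Igf1 and Ins2 were called in neither comparison. Their group means ran from 6.36 to 6.58 for Igf1 and from 4.64 to 5.30 for Ins2, and both genes lay below the array median on all 12 arrays.

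Of 12 binding-protein relatives, proteases and protease inhibitors, 2 were higher and 2 lower with each shRNA. Of the 6 among the brighter probe sets, 4 were called in each comparison when those were tested alone, against 40.7% and 34.9% of all of them. Htra1, a secreted serine protease that can cut IGF-binding proteins, fell with each (−0.87, adjusted p = 4.8e-06, and −0.23, adjusted p = 0.0315). The LL34 call was lost without LL34_shRNA replicate 1 or 2 or LL34_control replicate 2 or 3 (adjusted p from 0.0753 to 0.118). The proteases Ctsd and Furin rose with each, by 0.63 and 0.29 with the NANCI shRNA and by 0.32 and 0.73 with the LL34 shRNA. The Furin call with the NANCI shRNA was lost without replicate 1 of either NANCI group (adjusted p = 0.0667 and 0.0671). Stc2, whose protein stanniocalcin-2 blocks PAPP-A, fell with the NANCI shRNA by 0.66 and was not called with the LL34 shRNA (0.35, adjusted p = 0.0991), where it was called without LL34_control replicate 3 (0.51, adjusted p = 0.00346). Htra3, another serine protease, fell with the LL34 shRNA by 0.78 and was not called with the NANCI shRNA (0.24, adjusted p = 0.156, and 0.0257 without LL34_control replicate 3). Pappa and Pappa2, the genes of the proteases that cut IGFBP4 and IGFBP5, had changes between −0.09 and 0.08.

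Igf2bp3 encodes an RNA-binding protein known for binding the Igf2 message. It measured 10.64, 10.58 and 10.66 with the NANCI shRNA, against 9.79, 9.71 and 9.85 with the scrambled shRNA (change 0.84, adjusted p = 5.51e-05). In the LL34 set the order turned, at 9.84, 9.72 and 9.69 with the shRNA and 10.71, 10.69 and 10.37 with the scrambled shRNA (change −0.85, adjusted p = 0.000107).

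Of 19 adaptors and inhibitors next to the receptors, 8 were higher and 4 lower with the NANCI shRNA, and 4 higher and 5 lower with the LL34 shRNA. Of the 18 among the brighter probe sets, 14 and 10 were called when those were tested alone, against 40.7% and 34.9% of all of them. Grb10, an adaptor that restrains the insulin and IGF1 receptors, measured 8.20, 8.24 and 8.42 with the NANCI shRNA, against 9.68, 9.51 and 9.64 with the scrambled shRNA (change −1.32, adjusted p = 1.95e-06). With the LL34 shRNA it rose by 0.46 (adjusted p = 0.00372), a change that was −0.0016 with the 6 scrambled arrays pooled. Trib3, a pseudokinase that binds AKT, likewise fell by 1.05 with the NANCI shRNA and rose by 1.73 with the LL34 shRNA. With the pooled control the Trib3 change with the NANCI shRNA was 0.07. Cav1, the caveolar coat protein gene, fell with each (−0.76 and −1.16). Socs3, a feedback inhibitor, rose by 0.57 with the NANCI shRNA and fell by 0.51 with the LL34 shRNA on its brighter probe set, and its other probe set was not called (0.37 and −0.18). Socs2, which restrains growth hormone and IGF1 signalling, rose by 1.88 with the LL34 shRNA on 1 probe set and was not called on the other (0.15, adjusted p = 0.38). With the NANCI shRNA the first of these had a change of −0.46 that was not called (adjusted p = 0.164) except without LL34_control replicate 3 (0.00288), its lowest array. Gab1, a docking protein, fell with the LL34 shRNA (−0.51, adjusted p = 0.000202).

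In the kinase branch of PI3-kinase, AKT and mTOR, 5 of 23 genes were higher and 7 lower with the NANCI shRNA, and 3 higher and 6 lower with the LL34 shRNA. All 23 were among the brighter probe sets, where 16 and 13 of them were called against the same shares. Pik3r1, the gene of the PI3-kinase regulatory subunit that docks on the IRS proteins, measured 9.57, 9.70 and 9.74 with the NANCI shRNA and 10.61, 10.34 and 10.39 with the scrambled shRNA (change −0.78, adjusted p = 5.64e-05). It measured 9.96, 10.08 and 9.87 with the LL34 shRNA and 11.03, 11.005 and 10.91 with the scrambled shRNA (change −1.01, adjusted p = 2.07e-05). Its paralogue Pik3r3 rose by 0.92 with the NANCI shRNA and fell by 0.49 with the LL34 shRNA, a call lost without LL34_shRNA replicate 2 or LL34_control replicate 1 or 2 (adjusted p from 0.0511 to 0.0617). Akt2 fell with each (−0.37 and −0.56), whereas Akt1 was not called with the NANCI shRNA (−0.02, adjusted p = 0.901) and fell by 0.62 with the LL34 shRNA. Rptor, a subunit of mTOR complex 1, fell with each (−0.34 and −0.15), though the LL34 call was lost on leaving out any 1 of the 12 arrays (adjusted p from 0.0522 to 0.146). Phlpp2, an AKT phosphatase gene, rose with the NANCI shRNA (0.88), and Inppl1, which encodes the lipid phosphatase SHIP2, rose by 0.44 with the NANCI shRNA and fell by 0.63 with the LL34 shRNA.

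Of 17 FOXO target genes, 5 were higher and 6 lower with the NANCI shRNA, and 3 higher and 6 lower with the LL34 shRNA. Of the 14 among the brighter probe sets, 11 and 9 were called, again against 40.7% and 34.9%. Txnip, an inhibitor of thioredoxin and of glucose uptake, fell by 0.81 and rose by 1.07, and Ccng2, a cyclin of arrested cells, rose by 1.31 and fell by 0.71 with the NANCI and LL34 shRNAs. Bcl6, a transcriptional repressor, fell with each (−0.55 and −0.37), as did the sestrin gene Sesn3 (−0.58 and −1.39). Cited2, a transcriptional coregulator, and Cat, the catalase gene, fell with the LL34 shRNA (−1.38 and −0.64) and were not called with the NANCI shRNA (0.10 and 0.02).

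**Figure D4:**
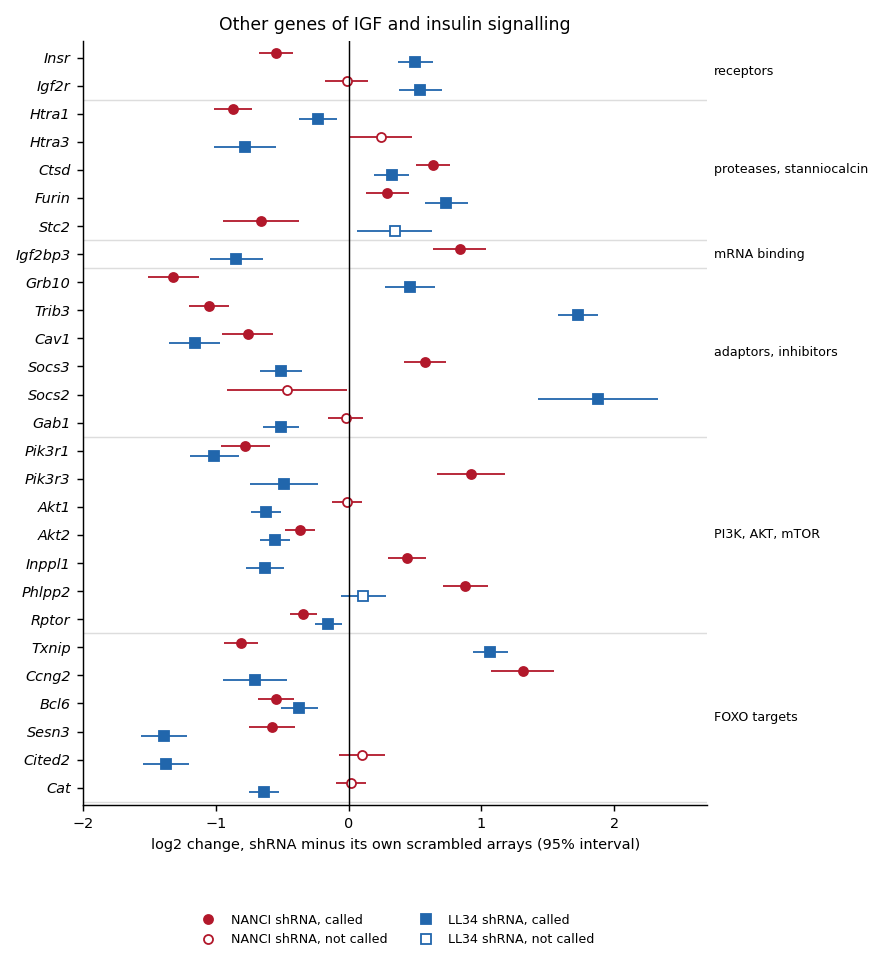
Log2 change of each named pathway gene with its 95% interval from the limma fit, NANCI shRNA minus NANCI scrambled (circles) and LL34 shRNA minus LL34 scrambled (squares), grouped by role, with filled symbols for an adjusted p under 0.05. Pik3r1, Akt2 and Cav1 lie below 0 in each comparison, whereas Insr, Grb10, Trib3 and Txnip lie below 0 with the NANCI shRNA and above 0 with the LL34 shRNA.

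For the 3 members called in both comparisons, the genes of most similar pattern were found over the 12 arrays among 22179 other genes, by the root mean square difference of values centred on each set. Nearest to Igfbp4 were Lrp5, a Wnt co-receptor gene, at 0.0504, the phosphatase gene Ppm1g at 0.0509 and Ubxn1 at 0.0604. Lrp5 had changes of −0.74 and 0.45 with the NANCI and LL34 shRNAs, next to −0.74 and 0.43 for Igfbp4. Nearest to Igfbp6 were Tnfrsf1b, a tumour necrosis factor receptor gene, at 0.0923, Serpinb6c at 0.108 and the beta-arrestin gene Arrb1 at 0.119. Nearest to Igf1r were Srcap, a chromatin remodeller gene, at 0.0344, Lims1, a focal adhesion adaptor gene, at 0.0422 and Atl3 at 0.0429. Igf1r has the smallest changes of these 3 members.

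Markers of other cell types were read beside these genes. Of 23 mesenchymal, endothelial and leukocyte markers, 1 was higher (Cd68) and 2 lower (Dcn, Tek) with the NANCI shRNA, and 0 were higher and 1 lower (Tek) with the LL34 shRNA. Over all probe sets, 19.9% were called with the NANCI shRNA and 16.4% with the LL34 shRNA. The mean log2 signal of the mesenchymal list ran from 7.43 to 7.52 on the NANCI shRNA arrays, against 7.50 to 7.67 on the scrambled arrays, and from 7.28 to 7.30 on the LL34 shRNA arrays, against 7.24 to 7.45 on the scrambled arrays. The endothelial list ran from 6.42 to 6.46 on NANCI shRNA and 6.54 to 6.61 on NANCI scrambled arrays. In the LL34 set it ran from 5.92 to 5.93 on shRNA and 6.10 to 6.19 on scrambled arrays. The mean of this list was thus lower with each shRNA, as were Igfbp6 and Igf1r, but it lay below the array medians throughout. Of the 7 endothelial genes, 4 lay below the array median on all 12 arrays. The median change of the list was 0.04 with the NANCI and −0.04 with the LL34 shRNA, and Tek was the 1 of its 7 genes called in either. The leukocyte list ran from 6.39 to 6.49 on NANCI shRNA and 6.26 to 6.41 on NANCI scrambled arrays, and from 5.87 to 5.99 on LL34 shRNA and 5.995 to 6.18 on LL34 scrambled arrays. Among the brighter probe sets tested alone, 40.7% were called with the NANCI and 34.9% with the LL34 shRNA. Of the 14 lung epithelium markers, 8 lay above the array median on all 12 arrays. Lung epithelium markers were called higher in 1 and lower in 5 of 14 with the NANCI shRNA, and in 2 and 5 of 14 with the LL34 shRNA. Nkx2-1, the transcription factor of lung epithelial identity, was among the lower ones with each (−1.0, adjusted p = 4.95e-06, and −0.27, adjusted p = 0.0327). Its LL34 call was lost without any 1 LL34_shRNA array or LL34_control replicate 1 or 2 (adjusted p from 0.0862 to 0.119). The part of these markers in the changes of the 10 genes was not tested.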

How the data were processed

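The authors deposited log2 signals, 1 value per probe set and array, in a single value table. Per the submitters' processing notes the tools were oligo, RMA and limma, without versions or order. The log2 scale was read from the values, no centring on a gene was seen, and the array medians and exact ties show that each set of 6 arrays stands apart. Of 41345 probe sets, 23521 had 1 symbol in the platform annotation, 1814 several and 16010 none. A probe set that carries Irs2 with a further symbol was left out. Where a gene had several probe sets the one with the highest mean signal over all arrays was used.

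All probe sets were fitted with limma 3.58.1 in R 4.3.3, with 12 arrays, 4 group means, 8 residual degrees of freedom and 2.84 prior degrees of freedom. Benjamini-Hochberg adjustment covered all 41345 probe sets per comparison (threshold 0.05). Precision is limited by the number of arrays. The fit was checked on simulated data with independent normal noise. Those data held neither the exact ties nor the difference between sets seen here, so the check does not cover them. Alternatives were other normalizations, filters, variance settings, the replicate number as a block, the set alone, a pooled scrambled group and leaving out each array.

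The 10 genes and the pathway and marker lists were chosen with earlier results of these data known. The rule named all 10 genes, the targeted RNA and Nkx2-1, up to 4 called genes with the smallest p per list and comparison, and Igf1, Igfbp1, Insr, Igf2r, Ins1 and Ins2, of which Ins1 was not measured. Pappa and Pappa2 were named after their values were seen. The choice of promoters to print, the counts called in both comparisons and the marker counts against the array median were also made after values were seen. Promoter windows are RefSeq's, of assembly GRCm38.p6, and the array files name no genome build.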

Additional observations from a re-analysis of the deposited data

Results flagged for a closer look

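For 6 of the 10 genes the change with the NANCI shRNA differed from the change with the LL34 shRNA in a limma test of the difference itself (NANCI change minus LL34 change, log2, adjusted over all probe sets). Igfbp5 differed by 1.54, with a fall in the LL34 set. Igfbp2, its neighbour, differed by 1.21, also with a fall in the LL34 set. Igfbp4 differed by −1.17, lower with the NANCI shRNA and higher with the LL34 shRNA. Irs1 differed by 0.54, and Irs2 by −0.33 and Igfbp3 by 0.33 with adjusted p-values of 0.0369 and 0.0379, closest to the threshold.

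The Igfbp3 difference was lost (adjusted p from 0.0532 to 0.0894) without 1 of NANCI_shRNA replicates 1 and 3, NANCI_control replicates 1, 2 and 3, LL34_shRNA replicates 2 and 3 and LL34_control replicates 1 and 2. The Irs2 difference was lost (0.05005 to 0.0934) without 1 of NANCI_shRNA replicates 2 and 3, NANCI_control replicates 1, 2 and 3, LL34_shRNA replicates 1 and 3 and LL34_control replicates 1, 2 and 3. The shRNAs, their targets and the sets of arrays cannot be told apart in these differences.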

How the results depend on the processing

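Of 418 alternative values of the 10 changes within a set, 384 kept their direction and side of the threshold. Of the others, 22 lost a call in the same direction, 2 gained one, 2 lost a call as the sign turned, and 8 turned sign without a call on either side. Many of the 418 could not turn sign. Leaving out an array of the other set, the set alone, the replicate block, a variance trend and the filters can move only the p-value. Of the 22 lost calls, 14 were of Irs1 with the LL34 shRNA and 5 of Irs2 with the NANCI shRNA. The 2 calls lost as the sign turned came with all 6 scrambled arrays as 1 control group. They were Igfbp4 with the LL34 shRNA (−0.082, adjusted p = 0.838) and Irs2 with the NANCI shRNA (0.057, adjusted p = 0.83). Among other named genes, Trib3 with the NANCI shRNA (0.066) and Grb10 with the LL34 shRNA (−0.0016) also turned sign and lost their calls. Of the 49 called changes of those genes, 13 more lost the call with that control. Under it 3 of the 10 genes were called with the LL34 shRNA, where 10.4% of all probe sets were. That control also moved the median change of all probe sets, from 0.01 to 0.13 with the NANCI shRNA. With the LL34 shRNA this median moved from 0.00 to −0.11. With arrays centred on their medians, Igfbp6 between the shRNA groups was 0.27 and Irs1 between the scrambled groups 0.034, against main values of 0.00 and −0.27. Leaving out 1 array gave from 4 to 5 called genes with the NANCI shRNA, from 5 to 6 with the LL34 shRNA, from 4 to 6 for the difference, and from 7 to 9 between the scrambled and between the shRNA groups. Of all probe sets, 16.2 to 23.1%, 11.4 to 16.1% and 15.8 to 19.6% were then called in the first of these comparisons. Between the scrambled groups it was 47 to 58.2%, and between the shRNA groups 57 to 67.2%. Replicate numbers did not pair the arrays, since same-numbered arrays correlated between −0.12 and 0.05 in their deviations. A fit with that number as replicate block called 4, 5 and 4 genes with the NANCI shRNA, the LL34 shRNA and for the difference. Of all probe sets it called 16.7%, 12.7% and 15.3%. The iterations behind the array weights stopped before they converged. Low signals such as those of Igf2, Igf1, Ins2, Igfbp1 and the dimmer Irs1 probe set limit what can be seen of these genes.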
